A study of Mus musculus with 2 samples.

Results

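Distal intronic EP300 peaks are the peaks whose summit lay inside a protein-coding gene, outside the exons of protein-coding genes, over 10 kb and at most 100 kb from the nearest protein-coding transcript start. They numbered 1168 of the 7733 optimal peaks on named chromosomes (15.1%, exact 95% interval 14.3 to 15.9), and 44.7% of the 2614 summits in that range of distance. The rule selects members by position alone, but it was chosen with earlier results of these data known. The stomachs came from B6NCrl mice at postnatal day 0, of unrecorded sex and with no treatment or allele named, and ChIP-seq against EP300 gave 2 libraries of 1 group. Labelled biological replicates 1 and 2, they carry 1 biosample and donor label, and their spread may be technical. Only peak lists were analysed, so the depth is unknown, and in whole tissue a weak peak cannot be told apart from a strong peak in few cells. Intervals cover counting error only, and neighbouring regions are not independent replicates, so each p-value compares peaks within these libraries.

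EP300 is a histone acetyltransferase that carries no sequence-specific DNA-binding domain. It is recruited by transcription factors and acetylates histones, among them H3 lysine residues at active enhancers, and its binding away from promoters is widely used to map enhancers. Introns hold many enhancers, which can act on the gene around them or on a neighbouring gene.

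The motif with the highest ratio of summits to flanks was the palindrome bound by the glucocorticoid receptor and by its close relatives, the mineralocorticoid, progesterone and androgen receptors: GNACA and TGTNC with any 3 bases between them. The 8 strongest peaks with this palindrome are shown with 8 bases on either side, as the plus strand of mm10 in RefSeq's copy of that assembly, with the palindrome in capitals. They were picked after the motif counts had been seen.
Zbtb16, chr9:48740265-48740293: cacacactGTACATACTGTACccacaagt
Klf13, chr7:63897082-63897110: ttgggcggGAACAGCATGTTCtcagtgaa
Zbtb16, chr9:48737594-48737622: tgctttggGTACAGTGTGTTCttggagac
Cblb, chr16:52094808-52094836: agtaaaaaGTACAGACTGTCCcaggacaa
Fkbp5, chr17:28420314-28420342: agagcacaGAACACCCTGTTCtgaatgtg
Trit1, chr4:123046543-123046571: gttggcttGTACAGAGTGTCCcaaacaag
Babam2, chr5:32054451-32054479: ggctataaGGACATGCTGTTCtctggaga
Per2, chr1:91436475-91436503: gacagagtGTACAGAATGTTCctggcacc
All 8 palindromes had their centre within 66 bp of the summit, and 7 of them within 20 bp. The arms were exact inverted repeats in 3 of them, those of Klf13 and Fkbp5 and the first of Zbtb16.

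The next windows run 100 bp either side of a summit, with base 101 at the summit. Capitals mark each match to a motif that was more frequent at summits than in flanks. Zbtb16 held the strongest of all these peaks; its 2 palindromes, at bases 80 to 92 and 89 to 101, overlap, and KLF matches lie at 10 to 17 and 180 to 187. Cblb joined a palindrome (108 to 120) to a FOX (90 to 96) and a KLF (53 to 60) match.
Zbtb16, chr9:48740185-48740385: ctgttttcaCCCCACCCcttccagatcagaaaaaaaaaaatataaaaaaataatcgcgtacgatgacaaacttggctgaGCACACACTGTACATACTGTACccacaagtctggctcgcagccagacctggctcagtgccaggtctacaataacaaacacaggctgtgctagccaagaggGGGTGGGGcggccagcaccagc
Cblb, chr16:52094709-52094909: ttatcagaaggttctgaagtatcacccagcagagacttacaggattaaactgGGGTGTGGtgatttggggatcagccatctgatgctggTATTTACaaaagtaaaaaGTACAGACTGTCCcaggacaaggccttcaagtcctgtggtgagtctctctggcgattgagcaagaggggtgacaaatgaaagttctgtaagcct

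Tjp1 showed the strongest AP-1 peak (148 to 154), with a TEAD match at 3 to 9. Prkch showed an ETS match (126 to 133), an AP-1 match (20 to 26), and NFI (155 to 160) and TEAD (159 to 165) matches that share bases. Gsn carried a CArG box, the site of serum response factor, at 70 to 79. Vmp1 carried a grainyhead-like (GRHL) match at 15 to 22 and a CArG box at 155 to 164.
Tjp1, chr7:65469744-65469944: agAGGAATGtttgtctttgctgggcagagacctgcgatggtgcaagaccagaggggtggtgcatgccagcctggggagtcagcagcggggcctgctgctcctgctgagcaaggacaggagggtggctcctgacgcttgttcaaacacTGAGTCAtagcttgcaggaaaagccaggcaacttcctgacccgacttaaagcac
Prkch, chr12:73617719-73617919: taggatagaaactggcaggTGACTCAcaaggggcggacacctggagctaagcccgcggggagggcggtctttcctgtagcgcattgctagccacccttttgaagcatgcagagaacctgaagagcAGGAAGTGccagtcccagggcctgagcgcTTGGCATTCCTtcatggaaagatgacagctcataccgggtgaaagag
Gsn, chr2:35302123-35302323: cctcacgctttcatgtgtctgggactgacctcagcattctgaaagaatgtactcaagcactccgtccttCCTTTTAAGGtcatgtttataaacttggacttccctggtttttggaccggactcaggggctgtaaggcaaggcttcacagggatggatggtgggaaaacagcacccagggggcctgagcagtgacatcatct
Vmp1, chr11:86586965-86587165: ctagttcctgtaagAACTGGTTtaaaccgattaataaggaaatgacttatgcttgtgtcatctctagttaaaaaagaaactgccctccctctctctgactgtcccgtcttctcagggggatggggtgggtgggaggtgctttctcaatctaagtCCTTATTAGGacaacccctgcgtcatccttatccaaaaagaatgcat

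The last set shows the strongest peak of 3 genes with many intronic regions. Foxp1 held a CArG box (89 to 98) and an ETS match (116 to 123), Fgfr2 an AP-1 match (36 to 42), and the predicted gene Gm20388 a KLF (11 to 18) and a CAGCTG (142 to 147) match.
Foxp1, chr6:99485311-99485511: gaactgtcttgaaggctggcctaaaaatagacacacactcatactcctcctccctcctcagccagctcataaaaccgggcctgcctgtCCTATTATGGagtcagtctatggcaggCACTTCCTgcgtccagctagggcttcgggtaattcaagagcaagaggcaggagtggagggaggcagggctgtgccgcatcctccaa
Fgfr2, chr7:130215940-130216140: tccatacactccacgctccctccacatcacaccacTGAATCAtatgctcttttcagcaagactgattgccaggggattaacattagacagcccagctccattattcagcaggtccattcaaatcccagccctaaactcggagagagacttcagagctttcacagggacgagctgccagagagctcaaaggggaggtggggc
Gm20388, chr8:123994076-123994276: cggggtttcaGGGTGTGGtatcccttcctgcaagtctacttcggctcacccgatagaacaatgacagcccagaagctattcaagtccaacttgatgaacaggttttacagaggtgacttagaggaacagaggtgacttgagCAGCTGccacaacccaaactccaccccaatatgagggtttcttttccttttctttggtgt

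The strongest distal intronic peaks lay in 4 places that stood far above the rest. Zbtb16, which encodes the zinc finger transcription factor PLZF, held the first and the third, at chr9:48740111-48740390 and chr9:48737474-48737769, both in intron 3 of 6. The signal value, the peak strength given by the authors' peak caller, was 179 for the first (98.9 in replicate 1, 79.1 in replicate 2) and 164 for the other (78.8 and 87.1). Klf13, a Krüppel-like transcription factor gene, held the second at chr7:63896989-63897155 with 169 (86.9 and 79.6). Cblb, an E3 ubiquitin ligase gene, held the fourth at chr16:52094691-52094920 with 123 (57.1 and 61.7). All 4 carried the receptor palindrome, and they were the 4 members (0.342%) narrower than the standard 560 bp of the list. The Klf13 summit lay 555 bp from the start of the non-coding gene Gm27252, and 19769 bp from the nearest coding start, that of E030018B13Rik.

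The next strongest peaks fell between 70.8 and 78.6. They lay in Tjp1, which encodes the tight junction scaffold ZO-1 (78.6; 41.5 and 36.2 in replicates 1 and 2), and in Ppp1r12b, a regulatory subunit of myosin phosphatase (77.6; 40.2 and 34.6). Fkbp5, which encodes a co-chaperone of steroid receptors, had 72.8 (36.3 and 31.6) at chr17:28420068-28420627, in intron 8 of 13. Gm20388 (75.2), the rhomboid protease gene Rhbdd1 (75), the inositol phosphate kinase gene Ip6k3 (74.9), the axonemal dynein gene Dnaic1 (72.5), the tRNA-modifying enzyme gene Trit1 (71.8), Entpd5 (71.2) and the RNA-binding protein gene Rbms1 (70.8) were also among the 15 strongest. All 15 were in the conservative set and among the strongest 7737 peaks of each replicate. The palindrome lay in 6 of these 15 (Zbtb16 at both peaks, Klf13, Cblb, Fkbp5, Trit1), in 10 of the 100 strongest and in 39 of all 1168 members.

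**Figure D1:**
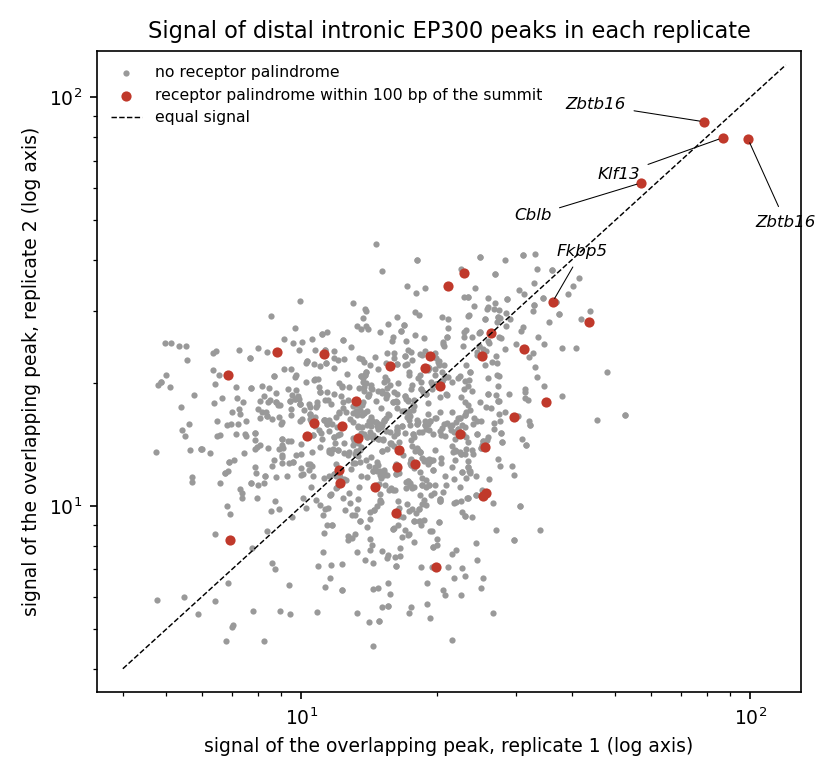
Signal of the matching peak in replicate 1 (x axis, log scale) and replicate 2 (y axis, log scale) for the 1047 distal intronic peaks matched in both lists; red points carry the receptor palindrome and the dashed line marks equal signal. The peaks of Zbtb16, Klf13 and Cblb stand apart at the upper right, and the other points form a broad cloud.

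Most members were far weaker. The median signal was 29.2 (quartiles 23.7 and 36.6, range 7.72 to 179). A peak of the replicate's own list had its summit inside 1092 members for replicate 1 (median 16.0 on that list's own scale) and 1120 for replicate 2 (median 15.8), and 1047 members (89.6%) were matched in both. Across those the replicate signals were loosely related (Pearson r 0.26 on log2 values, Spearman rank correlation 0.20, a description over peaks that share the same libraries). The ratio of replicate 1 to replicate 2 had a median of 1.00 and ran from 0.419 to 2.38 between the 5th and 95th percentiles. Within the strongest 7737 peaks of both replicates were 419 members (35.9%). Overlapping optimal peaks can share 1 peak of a replicate list. The 1168 members formed 963 runs of overlapping peaks, called regions here, of which 192 held 2 or more members. Of 137 members with a signal below 15.1, 50% of the median of all optimal peaks, 109 lay in a run with a stronger optimal peak.

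Intronic peaks were weaker than promoter peaks, and their difference from intergenic peaks was small. Above the joint median lay 48.7% of intronic and 51.1% of the 1379 intergenic peaks at the same range of distance (median signal 29.7), a log2 odds ratio of -0.13 (95% interval -0.36 to 0.09, two-sided Fisher's exact test, p = 0.249). With only the strongest peak of each run, or with the replicate 1 list in place of the optimal set, this ratio was -0.31 and passed the threshold (p = 0.0171 and 0.00957 by the same exact test). Against the 2952 promoter peaks (summit within 1 kb of a coding start, median signal 32.1) the shares were 42.1% and 53.1%, a log2 odds ratio of -0.64 (-0.84 to -0.44, exact p = 2.36e-10). With peaks selected anew from a single list this ratio was -1.04 for replicate 1 and -1.19 for replicate 2. With the same members and their matched replicate signals it was -1.23 and -1.08, and the ratio against intergenic peaks was -0.17 and -0.16 (exact p = 0.150 and 0.179). The summit lay in a peak of the conservative set for 62.2% of intronic, 66.4% of intergenic and 72.0% of promoter peaks. The log2 odds ratios against intergenic and promoter peaks were -0.27 (p = 0.0277) and -0.65 (p = 1.23e-09) by the same exact test. The first of these was close to the threshold. A summit base in masked repeat sequence was found in 10.8% of intronic and 11.2% of intergenic peaks (log2 odds ratio -0.07, -0.42 to 0.29, exact p = 0.751). Within 100 bp of the summit the median GC content was 46.3% at intronic, 48.3% at intergenic and 59.7% at promoter summits.

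Along the genome, intronic peaks were spread about as densely as intergenic ones. Per Mb of sequence that could hold a member there were 2.33 intronic peaks (501.5 Mb), and 2.36 intergenic peaks per Mb of the intergenic counterpart (584.6 Mb). The 19 autosomes ranged from 1.60 to 2.98 members per Mb. The X chromosome held 6 members, 0.273 per Mb, in Srpx2, Tmem164, Nhsl2, Tspan7 and Phka1, the last with 2 overlapping peaks, and intergenic peaks were also sparse there (0.157 per Mb). The median distance to a coding start was 29.9 kb (29862.5 bp, quartiles 17644.5 and 51094). Signal varied little with distance: the median was 29.7 for 355 members up to 20 kb, 29.0 for 509 up to 50 kb and 29.2 for 304 beyond. Just inside the threshold, 55 members at 10 to 11 kb had a median signal of 30.6, and just outside it 50 intronic summits at 9 to 10 kb had 26.6. The intron could be numbered for 1124 members. Of these, 27.5% (24.9 to 30.2) lay in the first intron, where 23.8% of the eligible bases lie.

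The gene around a peak was not always the gene with the nearest start. For 956 members (81.8%, 79.5 to 84.0) the nearest coding start belonged to a host, beside 81.2% of the eligible bases, so the share was that of the sequence itself. For the other 212 members the nearest start was that of 1 of 147 other genes. Spidr, a DNA repair gene, held 7 peaks in 4 regions, all nearest to Cebpd, which encodes the transcription factor C/EBP delta, at 61318 to 97437 bp. The 3 regions in Babam2 were nearest to Fosl2, an AP-1 subunit gene, and 2 of the regions in Thada were nearest to Zfp36l2, which encodes an mRNA decay factor. The 3 regions of Col4a2 were nearest to Col4a1, the collagen IV gene that shares its promoter region, and those of Ppp1r12b to Syt2. Several peaks named below by their host were also nearest to another gene. Those of Tcf7l1 (58.3), Lmod1 (41.3), Cdh1 (38.4) and Nfix (36.7), for example, were nearest to Tgoln1, Shisa4, Tango6 and G430095P16Rik in that order. Only 27 members (2.31%) lay within 1 kb of a non-coding transcript start.

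Of 11427 protein-coding genes with eligible intron sequence, 725 hosted a member (6.34%). The share rose with the length on offer, from 0.802% of genes with up to 10 kb to 4.21% at 10 to 50 kb, 11.9% at 50 to 100 kb, 17.3% at 100 to 200 kb and 30.5% above 200 kb. Hosts had a median of 82.7 eligible kb and other eligible genes 19.4 kb. Every count of hosts below is read against this dependence on length, which was not modelled.

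Several separate regions were found in 188 genes, 3 or more in 58, and 6 or more in 3. Foxp1, a forkhead transcription factor gene, had 6 regions, all nearest to its own starts, spread over introns 1 to 15 with signals of 25.8 to 47.3; 5 of its 7 peaks were in the conservative set. Fgfr2, a fibroblast growth factor receptor gene, had 8 and Gm20388 had 7, but their annotated gene models span 2961 and 4435 kb across other genes. Only 2 of the Fgfr2 regions were nearest to its own starts (signals 47.6 and 26.4), and the others were nearest to Ctbp2, Tacc2, Htra1 or Zranb1. None of the Gm20388 regions was nearest to a start of that gene.

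The genes with 4 regions differed in function and in which start lay nearest. Zbtb16 added to its pair of very strong peaks a region of 28.3 in intron 2 and one of 25.4 in intron 3, so its 4 regions lay within 15.4 kb of each other. Tead1, the gene of a Hippo pathway transcription factor, had 4 regions with 6 peaks, the strongest at chr7:112826222-112826781 with a signal of 61.6 (18.1 in replicate 1, 40.1 in replicate 2). Dlc1, the gene of a GTPase-activating protein, had signals of 14.6 to 43.9. Pgm5, which encodes aciculin of smooth muscle adhesion plaques, had 52.6, 42.3, 35.1 and 21, with a receptor palindrome at 35.1; the 42.3 peak was nearest to its own start and the other 3 were nearest to Tmem252, at 58434 to 88973 bp. Lpp, a LIM protein gene of focal adhesions and smooth muscle, ranged from 19.9 to 34.6. Diaph1, a formin gene, ranged from 13.1 to 43.1, and Tgfbr3, the co-receptor betaglycan, from 10.1 to 39.5. Rasgef1b, Gm42906 and Akap13, an A-kinase anchoring protein gene, reached 37.0, 33.5 and 29.7. In Syn3, 3 of the 4 regions lay within the nested gene Timp3, a metalloproteinase inhibitor, and were nearest to its start (strongest 55.9). The 4 regions of Cuedc1 (30.8 to 52.6) were nearest to Mrps23.

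**Figure D2:**
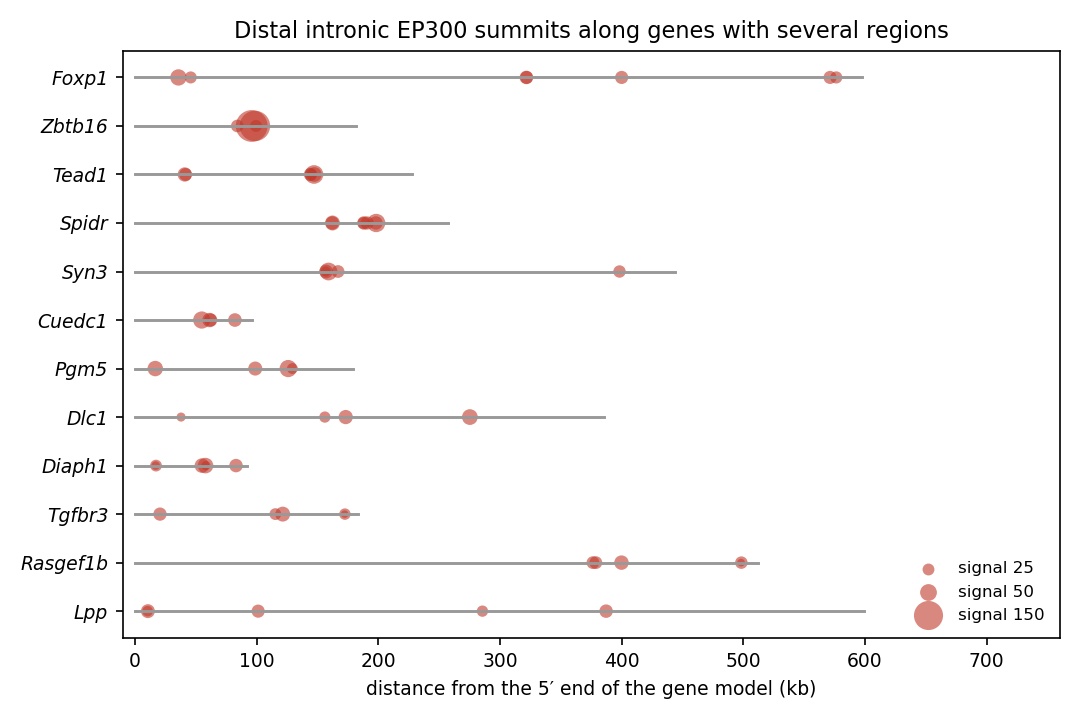
Summits of distal intronic EP300 peaks (circles, area in proportion to signal) along 12 gene models with several regions, drawn as grey lines in kb from the 5′ end of the gene; Fgfr2 and Gm20388 are left out because their models run over several Mb. The large overlapping circles are the strong pair in Zbtb16, while the circles of Foxp1 and Lpp are spread over most of the gene.

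Genes of smooth muscle, actin and cell junctions were frequent hosts. In the list of smooth muscle genes 10 of 23 eligible genes hosted a member (43.5%, 23.2 to 65.5), beside 6.34% of all eligible genes. Filip1l had a signal of 59.3, Pgm5 52.6, the leiomodin gene Lmod1 41.3 and the caldesmon gene Cald1 37.6. Among the other hosts were the calcium channel gene Cacna1c, the myosin light chain kinase gene Mylk, Pde5a, the SRF cofactor gene Myocd and Svil. The list of actin and adhesion genes had 11 of 27 (40.7%, 22.4 to 61.2): the vinculin gene Vcl had a peak of 70.0 (43.9 in replicate 1, 30.0 in replicate 2), Myh9, a non-muscle myosin heavy chain gene, 44.8, the parvin gene Parva 44.7 and the palladin gene Palld 43.4. The epithelial junction list had 9 of 23 (39.1%, 19.7 to 61.5): after Tjp1 (78.6) came the desmoplakin gene Dsp with 41.9, the E-cadherin gene Cdh1 with 38.4 and the laminin gene Lamb3 with 36.3. These lists differ in length on offer: the median eligible sequence per gene was 110.3 kb for smooth muscle, 89.7 kb for actin and adhesion and 28.1 kb for junctions, against 21.2 kb over all eligible genes. Per Mb of it there were 5.77, 8.43 and 16.1 regions, against 1.94 over all eligible genes.

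Signalling pathways contributed receptors, modulators and effectors. TGF-beta and BMP genes had 9 of 24 (37.5%), among them the ligand gene Tgfb2 (43.8), the receptor genes Bmpr1a (41.2) and Tgfbr3 (39.5), and the co-repressor gene Ski (43.9). Wnt genes had 6 of 24 (25%): the effector gene Tcf7l1 had 58.3, the receptor-degrading ligase genes Rnf43 and Znrf3 had 44.6 and 36.6, and Gsk3b 30.0. Hedgehog and Notch genes had 6 of 22 (27.3%), with the ligand gene Jag1 at 50.4, the co-activator gene Maml2 at 40.4, Spen at 39.6 and the receptor gene Notch2 at 37.7. Receptor kinase and ERK genes had 4 of 24 (16.7%, 4.74 to 37.4), an interval that spans the 6.34% of all eligible genes. These were Fgfr2 (47.6), Egfr (32.4), the phosphatase gene Dusp10 (27.7) and Met (17.6). Steroid and clock genes had 7 of 24 (29.2%), among them Zbtb16, Fkbp5 and the clock repressor gene Per2 (53.1; 23 in replicate 1, 37.2 in replicate 2). Of the 17 peaks in that list 4 held the receptor palindrome (23.5%, 6.81 to 49.9), beside 3.34% of all members. Both very strong Zbtb16 peaks were among these 4. An NFI match lay at 7 of the 17 (41.2%, 18.4 to 67.1), beside 17.7% of all members. A CAGCTG match lay at 6 of the 15 receptor kinase peaks (40%, 16.3 to 67.7), beside 15% of all members. The pairs of list and motif given here were picked from many after their values were seen, without adjustment. The 17 peaks lay in 13 regions of 7 genes and are not independent draws, so these intervals are a description. Mesenchymal factor genes had 6 of 20 (30.0%), with Nfib at 49.5, Nfix at 36.7, Nfia at 33.5 and Meis1 at 29.4. That share was 15% (3.21 to 37.9) with the replicate 2 list alone and 10% (1.23 to 31.7) in the conservative set, and in both the interval spans the share of all eligible genes. These lists had more sequence on offer than the 21.2 kb median of eligible genes. Their medians were 55.0 kb (TGF-beta and BMP), 51.3 (Wnt), 45.0 (Hedgehog and Notch), 38.6 (receptor kinase), 46.9 (steroid and clock) and 87.4 (mesenchymal). Of genes with 50 to 100 kb, 11.9% hosted a member, a share that the Wnt interval (9.77 to 46.7) spans. The mesenchymal interval (11.9 to 54.3) starts at about that share, and the TGF-beta and BMP interval (18.8 to 59.4) lies above it.

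For the receptor kinase list and the lists that follow, the exact intervals spanned the 6.34% of all eligible genes, so no difference from that share was detectable. Among stomach lists, gastric epithelial factors had 1 of 15 (6.67%; Trp63, 3 regions, strongest 48.2), and gastric secretory and endocrine genes 0 of 9, where the exact interval reaches 33.6%. Enteric neuron and glia genes had 3 of 16 (18.8%, 4.05 to 45.6; among them Nrxn3 at 41.0 and Nkain3 at 27), extracellular matrix genes 3 of 28 (10.7%; Col4a2 at 32.6, Fbln1 at 32.1, Col5a2 at 9.59), endothelial genes 1 of 19 (5.26%; Pecam1 at 27.7), blood and immune genes 1 of 13 (7.69%; Cx3cr1 at 30.6) and immediate early genes 1 of 3 (Atf3 at 37.8). With 1 replicate list alone several of these shares moved: endothelial genes had 21.1% in the replicate 2 list and 10.5% in the replicate 1 list, enteric genes 25% and 6.25%, matrix genes 17.9% and 21.4%, gastric factors 13.3% and 6.67%, and gastric secretory genes 11.1% in each. In the conservative set endothelial genes had 15.8% and gastric factors 20%. When only regions nearest to a start of the host were counted, matrix, endothelial and blood and immune genes each had 0. In that setting enteric genes had 12.5% and gastric factors 6.67%. Among genes of other organs, heart and skeletal muscle had 1 of 15 (Ryr2 at 26.8), forebrain 1 of 13 (Gria2 at 25.2), liver 0 of 12 and kidney 0 of 14, and with either replicate list alone each of these had 0. Intronic peaks give a weak check of the labelled tissue: of 25 gastric secretory and endocrine genes, 9 had an eligible intron. The lists were chosen with results of these data known, so their shares are a description.

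**Figure D3:**
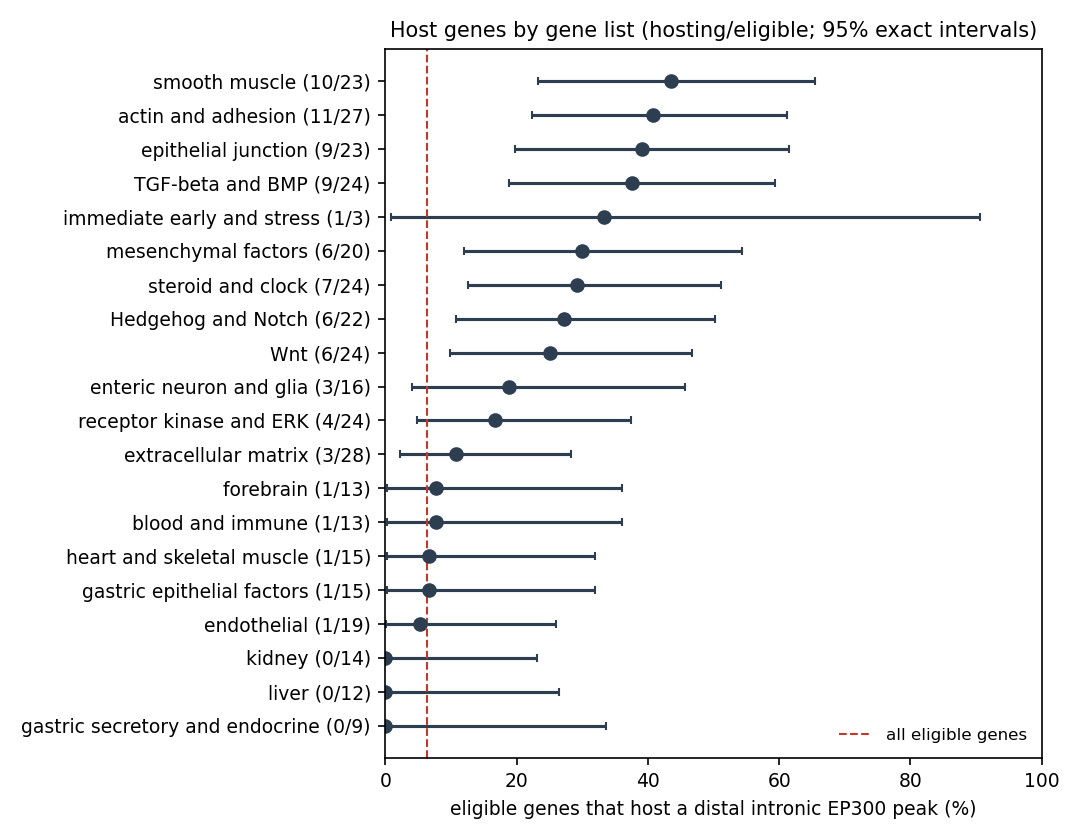
Share of eligible genes that host a distal intronic EP300 peak (x axis, %) for each of 20 gene lists, with exact 95% intervals and the counts in brackets; the dashed line is the share over all eligible genes, 6.34%. The intervals of 8 lists, from smooth muscle to Wnt, lie above the line, 5 of them in all 8 alternative settings, and that of the immediate early genes spans it because 3 genes were eligible.

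Motifs of several factor families were concentrated at the summits. For 44 motifs, the share of windows 100 bp either side of member summits was compared with windows of the same length 1 kb away, on both strands, by an exact McNemar test with Benjamini-Hochberg adjustment over the 44. More frequent at summits were 11 (25%), and less frequent 0 (0.0%). At an unadjusted p under 0.05 these counts were 15 and 0. The 44 motifs were chosen with earlier results of these data known. The motif p-values here and below therefore describe this panel and are not independent evidence. The receptor palindrome was found at 39 summits and 2 flanks (3.34% against 0.171%, adjusted exact p = 1.72e-08). GRHL, the site of epithelial grainyhead-like factors (AACCGGTT or AACTGGTT), was found at 30 and 4 (2.57% against 0.342%, adjusted exact p = 3.88e-05), and the CArG box (CC, 6 of A or T, GG), bound by serum response factor at muscle and cytoskeletal genes, at 34 and 5 (2.91% against 0.428%, adjusted p = 1.78e-05).

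Common motifs rose by smaller ratios. AP-1 (TGANTCA), the site of Fos and Jun dimers, was found at 197 summits and 74 flanks (16.9% against 6.34%, adjusted exact p = 1.64e-13). TEAD (CATTCCN), the site of the DNA-binding partners of YAP and TAZ, was the most common at 217 and 117 (18.6% against 10%, adjusted exact p = 7.22e-08). NFI (TTGGCA) was found at 17.7% against 10.7%, the E-box CAGCTG at 15% against 9.50%, KLF (CCACACCC, CCACGCCC, CCCCACCC or CCCCGCCC) at 12.5% against 6.08% and FOX (TATTTAC or TGTTTAC) at 11.3% against 7.36%. NRF2 (5.91% against 3.17%) and ETS (AGGAAGTG, 3.42% against 1.63%) were the remaining ones, with adjusted p = 0.00972 and 0.0300 by the same exact test. Of 9 alternative settings, the ETS motif passed the threshold in 3, NRF2 in 4, FOX in 6 and CAGCTG in 8, and the other 7 motifs in all 9. NRF2 and AP-1 can share bases, and 28 summits held both. None of the 11 motifs lay at 357 summits (30.6%) and at 652 flanks (55.8%), a direction set by how the 11 were chosen. Median signal was 27.2 with none, 29.4 with 1, 30.4 with 2 and 31.9 with 3 or more.

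**Figure D4:**
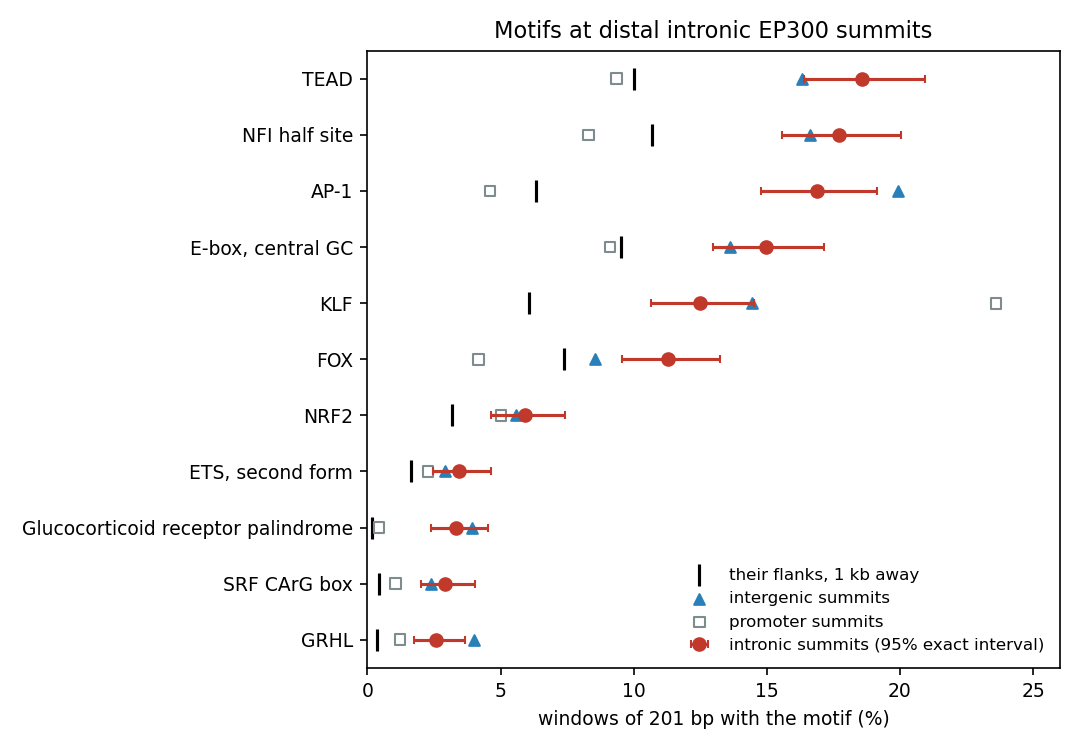
Share of windows of 100 bp either side with each of the 11 motifs (x axis, %) at intronic summits (red, exact 95% intervals), in their flanks (bars), at intergenic summits (triangles) and at promoter summits (squares). For each motif the flank lies below the intronic interval. The triangles lie nearer to the red points than to the flanks, apart from FOX. KLF alone among these is more frequent at promoter than at intronic summits, and its words include CCCCGCCC, the SP motif of the promoter comparison below.

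The palindrome and GRHL lay closest to the summit of the 11 motifs. Within 25 bp of it were 53.8% of the members with a receptor palindrome and 53.3% of those with GRHL, against 40% for ETS, 38.2% for the CArG box, 35.5% for AP-1, 30.4% for TEAD, 24% for CAGCTG and 23.2% for NRF2 (each member counted by its nearest match). Members with the palindrome had a median signal of 35.1 and those without it 29.0; in replicate 1 the medians were 20 and 15.7, and in replicate 2 18 and 15.8. Besides the genes already named, palindromes lay in Pik3r1 (43.1), Actn1 (40.4), Jag1 (30.3), Timp3 (33.5) and Tns3 (23), and at a further peak in Babam2 (39.2). These hosts were picked after their values were seen. The strongest GRHL peaks lay in Vmp1 (67.2), Ankrd11 (64.9) and Slc22a23 (60.3), and the strongest CArG peaks in Vmp1, Gsn (56.1) and Pcsk7 (53.4), with Myh9 (44.8), Bmpr1a (41.2) and Lpp (30.7) among the others. In the lists of genes these factors are known for, the CArG box lay at 0 of 19 smooth muscle members and 2 of 30 actin and adhesion members, and GRHL at 0 of 15 epithelial junction members, where the exact intervals reach 17.6%, 22.1% and 21.8%.

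**Figure D5:**
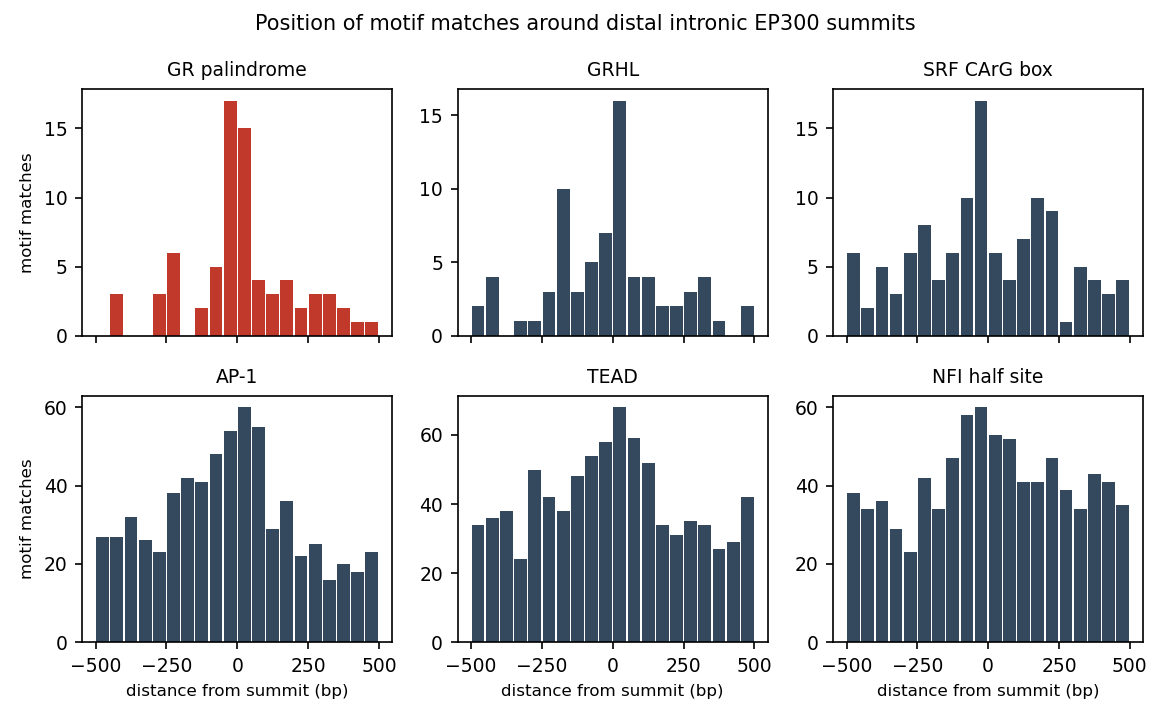
Motif matches (y axis, counts) in bins of 50 bp on either side of the summits of the 1168 distal intronic peaks (x axis, bp), for 6 motifs. The receptor palindrome (red) has 17 and 15 matches in the central bins; AP-1, TEAD and NFI have broad rises to 60, 68 and 60.

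Intronic and intergenic summits did not differ beyond error in any of the 44 motifs. By Fisher's exact test with Benjamini-Hochberg adjustment, 0 were more frequent (0.0%) and 0 less frequent (0.0%) in introns, with a smallest adjusted p of 0.583; at an unadjusted p under 0.05, 1 was more frequent, FOX at 11.3% against 8.56% (log2 odds ratio 0.44, 95% interval 0.07 to 0.82). The intervals still allow sizeable differences: for GRHL, at 2.57% against 3.99%, the log2 odds ratio was -0.65 (-1.29 to 0.00), and for the palindrome, at 3.34% against 3.92%, -0.23 (-0.84 to 0.37). Against promoter summits 22 motifs were more frequent in introns (50%) and 9 less frequent (20.5%) by the same test. The palindrome (0.440% of promoter summits, log2 odds ratio 2.93), AP-1 (4.61%, 2.07), MEF2 (1.49%, 1.70), FOX (4.17%, 1.55), CArG (1.05%, 1.5), NFI (8.30%, 1.25) and TEAD (9.35%, 1.15) were among the first group. YY1 (0 intronic summits, 2.00% of promoter summits), ETS in its form CCGGAAGT (0.171% against 5.52%), SP (2.05% against 13.5%), NF-Y (1.97% against 9.45%) and KLF (12.5% against 23.6%) were among the second; a count of 0 of 1168 allows a share of up to 0.257%, taken as 3 counts. The SP motif, GGGCGGGG, is the KLF word CCCCGCCC on the other strand, so each SP match is also a KLF match. SP lay at 24 of the 146 intronic and at 398 of the 697 promoter summits with KLF. The 2 motifs are thus not separate, and the other KLF words were not tested apart from CCCCGCCC. GC content differed between these classes, as given above, and its part in the motif differences was not tested.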

How the data were processed

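Peak lists on mm10, per the labels, were deposited in the narrowPeak format. The signal of a peak is the value the authors' peak caller gave, and its scale differs between deposited lists. The IDR score of the deposited optimal and conservative sets and the q column were kept as a score and not tested. The summit offset in bp is a position, counted from 0 in the deposited lists. Which aligner and caller were used is not given in the sources used here. Of these lists, the optimal set is the authors' main list after testing replicates for reproducibility (irreproducible discovery rate, IDR), and the conservative set is stricter.

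The summit was the deposited start plus the offset. Genes, starts and exons came from GENCODE release M21 and sequence from the RefSeq copy of the same assembly. Coordinates are 1-based. Overlapping optimal peaks were merged into runs to count regions. An optimal peak took the signal of the strongest replicate peak with its summit inside. Gene lists (20, with 551 entries; Mkl1 and Mkl2 had no match) and 44 motifs were used. The members, lists and motifs were chosen with earlier results of these data known. Genes were named by rule: hosts of the 15 strongest members, the 15 hosts with most regions, up to 4 strongest hosts of each list, and motifs past an adjusted p of 0.05. Some hosts chosen this way are not reported here. Genes on the X chromosome, neighbouring genes and other hosts of motifs fall outside it, and their values were seen before they were chosen. Classes were compared by two-sided Fisher's exact tests, summits with flanks by exact McNemar tests, and adjusted by Benjamini-Hochberg over 44 motifs. Log2 ratios have 0.5 added to each count. Scan and tests were tested on simulated sequence. Intervals of shares are exact Clopper-Pearson at 95%. Alternatives were the conservative set, each replicate list alone (its strongest 7737 peaks), 1 peak per run, the stronger 50% of peaks, a minimum of 20 kb, exons of coding transcripts only, windows of 50 bp either side, and the flank on the other side. Python 3.11.15, pandas 2.3.3, scipy 1.17.1, pysam 0.24.0 and samtools 1.23.1 were used.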

Additional observations from a re-analysis of the deposited data

Results flagged for a closer look

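The conservative set held 249 distal intronic summits whose peaks overlap no optimal peak, of 987 conservative peaks that meet the same positional rule. They enter none of the main comparisons, which use the optimal set. They do enter the values given for the conservative set, among them its mesenchymal, endothelial and gastric factor shares. No control sample was available to set them against. Their median signal in the conservative list was 24. The strongest lay in Frem2, which encodes an extracellular matrix protein, at chr3:53564469-53565028 with 51.3, in Btd with 41.4 and in Rbpms, an RNA-binding protein gene of smooth muscle, with 40.2. Others lay in genes described above, such as Parva (36.9), Foxp1 (32.9), Maml2 (31.0), Znrf3 (30.8) and Notch2 (30.8).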

How the results depend on the processing

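No paired analysis was possible because the series has 1 group. The share of distal intronic summits, 15.1%, was 14.2% in the conservative set, 13.7% in the stronger 50% of peaks and 10.5% over 20 kb, and 14.8% to 15.8% with either replicate list alone. Host genes fell from 725 to 433, and genes with several regions from 188 to 75, in the stronger 50% of peaks, which holds fewer peaks. Host genes numbered 595, and genes with several regions 144, when only regions nearest to a start of the host were counted, an alternative added after seeing the data. Against the share of all eligible genes in the same setting, the intervals of the smooth muscle, actin and adhesion, epithelial junction, TGF-beta and BMP, and steroid and clock lists lay above in all 8 alternatives, those of Hedgehog and Notch in 7, Wnt in 6 and mesenchymal factors in 5. Wnt genes had 16.7% (4.74 to 37.4) with the replicate 2 list alone, beside 7.69%, and the matrix list rose above in 1 alternative, the replicate 1 list alone. The first intron held 23.9% of members over 20 kb from a start. The matching share of eligible bases over 20 kb was not computed, so this value cannot be set against the base share given above. Signal against intergenic peaks gave a log2 odds ratio of -0.31 with 1 peak per run (p = 0.0171), and -0.31 to -0.20 with a replicate list alone (Fisher's exact test). The repeat comparison, not significant in any setting, changed sign to 0.079 in the conservative set, 0.012 over 20 kb, and 0.14 to 0.20 with a replicate list alone. Motifs above their flank numbered 7 in windows of 50 bp. The E-box CATATG was the 1 motif below its flank with the upstream flank, and likewise without replicate 2 (0 to 1 in the single replicate lists). The cause of these changes was not tested. Depth is unknown, so no limit from it can be given.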
